A study of Mus musculus with 2 samples.

Results

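The genes Mir130a, Mir130b, Mir301 and Mir301b form 1 microRNA (miRNA) seed family, made from 3 loci of the mouse genome. They were found by their Ensembl identifiers among the 1973 genes counted, and all 4 were present. MicroRNA sequencing had been carried out on total RNA, size selected below 30 nt, from the stomach of B6NCrl mouse embryos at 14.5 days of development. There was 1 group with 2 biological replicates, each described as a single stomach collected on its own day. The labels also give each sample's sex as pooled male and female, so a pool is possible, and they state no mutation or treatment. No condition varied, so the data give levels, the makeup of the family and the spread between libraries. Each replicate has its own collection day, so effects of the day and of the animal cannot be told apart.

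A miRNA is cut from a hairpin precursor whose 2 arms, 5p and 3p, can each give a mature strand. The mature strand guides the silencing complex to messenger RNAs mainly through its seed, bases 2 to 8 counted from the 5′ end, so miRNAs with the same seed can share targets. The family of miR-130 and miR-301 is known for repressing the adipogenic regulator PPARG. miR-130a is also known from blood vessel endothelium, where it represses the homeobox genes GAX and HOXA5, and miR-130b has been studied in gastric cancer. The counts are per gene, so the 5p and 3p strands of a hairpin are added together in every value here.

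The 3p strands are shown first because they carry the seed that defines the family. Sequences are from RefSeq (GRCm38.p6, the assembly also called mm10), 5′ to 3′, with bases 2 to 8 in capitals.
miR-130a-3p: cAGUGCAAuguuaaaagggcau
miR-130b-3p: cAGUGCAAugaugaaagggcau
miR-301a-3p: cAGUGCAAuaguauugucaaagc
The first of these comes from Mir130a, the second from Mir130b and the third from Mir301. The table has a mature 3p entry for 3 of the 4 genes, and a hairpin and a mature 5p entry for all 4. For Mir301b the whole hairpin is shown, with the bases that equal the seed of the other genes in capitals.
Mir301b hairpin: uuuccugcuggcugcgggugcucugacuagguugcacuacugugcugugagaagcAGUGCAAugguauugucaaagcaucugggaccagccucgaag

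Behind the seed the family splits into a Mir130 and a Mir301 type. miR-130a-3p and miR-130b-3p differ at 2 of 22 bases, U11A and A13G (the base of miR-130a-3p, the position from the 5′ end, then the base of miR-130b-3p), and both end in aaagggcau. miR-301a-3p and the 23 bases of the Mir301b hairpin that begin at the same place differ at 1 base, A10G with the base of miR-301a-3p first, and both end in guauugucaaagc. Between the types 9 to 11 of 22 bases differed, with the first 9 bases the same in all 4 genes. All 4 begin with C, the first base of 20.4% of the 1738 mature entries of the table, against 41.3% that begin with U.

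The 5p strands are shown because they are counted with the 3p strands and do not carry the family seed.
miR-130a-5p: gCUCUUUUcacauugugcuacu
miR-130b-5p: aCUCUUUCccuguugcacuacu
miR-301a-5p: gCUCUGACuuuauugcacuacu
miR-301b-5p: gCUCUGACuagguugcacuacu
miR-301a-5p and miR-301b-5p have the same bases 2 to 8 and differ at 3 of 22 bases. miR-130a-5p and miR-130b-5p differ at 7 of 22 bases, and their bases 2 to 8 differ from each other and from those of the Mir301 type.

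The loci lie on 3 chromosomes (GRCm38, GENCODE M21 gene models). Mir130a (ENSMUSG00000065484.1) is on chromosome 2 at 84741115 to 84741178, minus strand, inside no other annotated gene, with Gm19426 lying 990 nt away on the same strand. Mir301 (ENSMUSG00000065589.1) is on chromosome 11 at 87113004 to 87113089, plus strand, within Ska2, a gene of the kinetochore machinery that joins chromosomes to the spindle, and it overlaps no Ska2 exon. Mir130b (ENSMUSG00000065572.1, 17124061 to 17124142) and Mir301b (ENSMUSG00000076288.1, 17124400 to 17124496) are neighbours on the minus strand of chromosome 16, 257 nt apart. Both lie within the protein-coding gene 2610318N02Rik and overlap none of its exons. No other miRNA gene lay within 10 kb of any of the 4.

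The libraries held 5004548 gene counts in replicate 1 and 4679914 in replicate 2, and levels are counts per 1000000 of these (CPM), a share of the counted miRNA and not an amount per cell. Markers of smooth muscle and epithelium were present. The summed level of smooth muscle markers (Mir143 and Mir145a) was 146512 to 164146 CPM, nearly all of it Mir143. That of epithelial markers (the Mir200 family) was 41439 to 41482 CPM, with all members of both lists detected. These lists do not by themselves identify the stomach. Mir375, the marker of gastric and endocrine epithelium, had 5552 CPM in replicate 1 and 4678 CPM in replicate 2. Erythroid markers summed to 147 to 213 CPM, leukocyte markers to 560.1 to 598 CPM, striated muscle markers to 96.2 to 111 CPM, the liver marker Mir122 to 56.7 to 65.8 CPM and pancreatic markers to 4.27 to 5.20 CPM. Neural markers summed to 1671 to 1834 CPM, nearly all of it Mir137, while Mir124a-1, Mir124a-2 and Mir9-2 were at 0, as were Mir133a-1 and Mir133a-2 of striated muscle. Mir208b held most of the striated muscle sum, at 95.1 and 86.3 CPM in replicates 1 and 2, and Mir9-1 and Mir1a-2 were not among the genes counted. Reads that map to several places, 27.4% to 27.8% of all reads, are counted for no gene, so miRNAs with several genomic copies can be too low. The counts of 0 named here therefore do not show absence. The parts that other cell types had in the levels of the family were not tested.

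The 4 genes together made up 3.28% ± 0.11 (SD, n = 2) of all gene counts, 32836 ± 1078 CPM. Their sum was 160515 counts in replicate 1 and 157236 in replicate 2, or 32074 and 33598 CPM. Only 6 single genes of the 1973 had a mean level above this sum. Reads that map to several places are in no gene's count, so genes with several genomic copies may stand too low in this and the following ranks. The order of the genes was the same in both libraries: Mir130a, then Mir130b, then Mir301, then Mir301b.

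Mir130a was the main source of the family. It was counted 127002 times in replicate 1 and 123015 times in replicate 2, which is 25377 and 26286 CPM, a mean of 25832 ± 642 CPM. Mir130a ranked 8th of all genes in replicate 1 and 9th in replicate 2. The SD of its CPM was 2.49% of the mean.

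Mir130b, of the chromosome 16 locus, followed. It had 26870 counts in replicate 1 and 26749 in replicate 2, or 5369 and 5716 CPM, a mean of 5542 ± 245 CPM. Mir130b ranked 38th in replicate 1 and 35th in replicate 2.

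Mir301, whose mature strands carry the name miR-301a, was counted 6245 and 7041 times in replicates 1 and 2, which is 1248 and 1505 CPM, a mean of 1376 ± 181 CPM. The SD was 13.2% of the mean, and Mir301 ranked 94th and 86th.

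Mir301b was the lowest. It had 398 counts in replicate 1 and 431 in replicate 2, or 79.5 CPM (95% exact Poisson interval 71.9 to 87.7) and 92.1 CPM (83.6 to 101). The intervals overlap, and they cover counting error only. Reads carry no molecular identifiers, so copies of 1 molecule cannot be told apart and the intervals may be too narrow. The mean was 85.8 ± 8.89 CPM, at ranks 208 and 202. No level range of 1 gene over the libraries touched that of the next gene in the order.

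**Figure D1:**
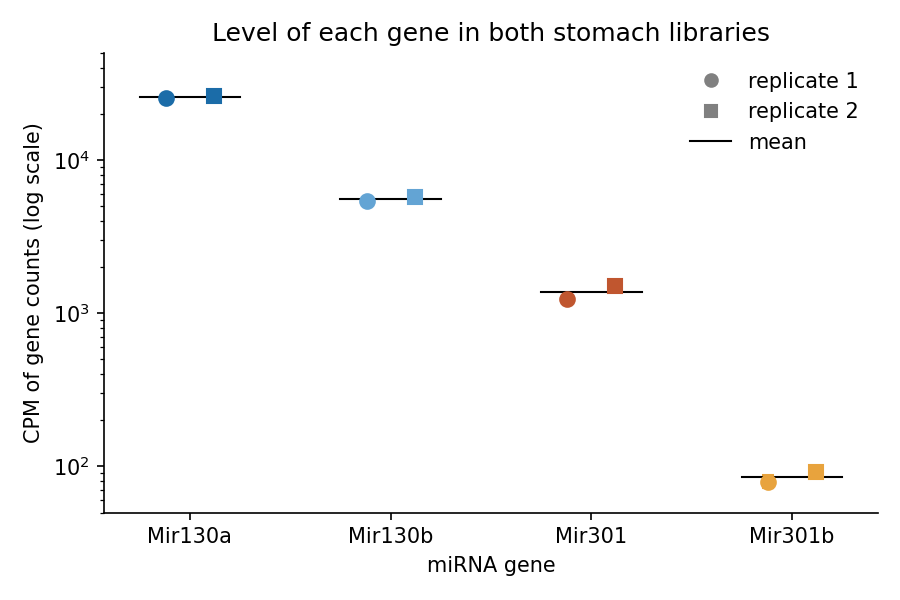
CPM of gene counts (log axis) of each gene in replicate 1 (circles) and replicate 2 (squares), with 95% exact Poisson intervals, most of them smaller than the symbols, and the mean of both as a line. The genes step down from Mir130a, at 25377 and 26286 CPM, to Mir301b, at 79.5 and 92.1 CPM, and the libraries lie close together at each step.

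**Figure D2:**
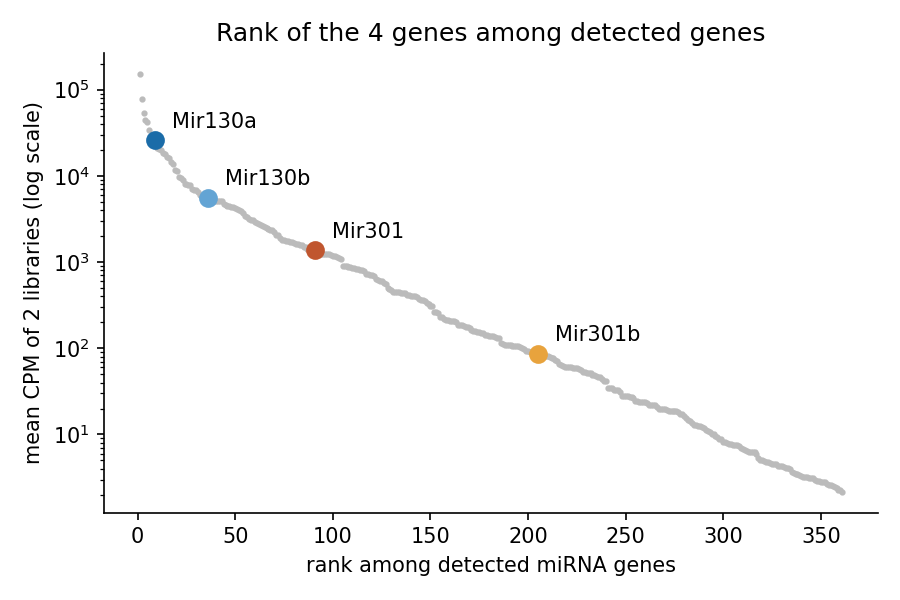
Mean CPM of the 2 libraries (log axis) against rank for the 361 genes with 10 or more counts in both libraries (grey), with the 4 genes in colour. Mir130a stands at rank 9 on the steep part of the curve, Mir130b at rank 36, Mir301 at rank 91 and Mir301b at rank 205.

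The makeup of the family was close to the same in both libraries. Mir130a gave 79.1% of the family's counts in replicate 1 (95% Wilson interval 78.9 to 79.3) and 78.2% in replicate 2 (78.0 to 78.4). Mir130b gave 16.7% (16.6 to 16.9) and 17.0% (16.8 to 17.2). Mir301 gave 3.89% (3.80 to 3.99) and 4.48% (4.38 to 4.58), and Mir301b 0.248% (0.225 to 0.274) and 0.274% (0.249 to 0.301). Counting intervals of the libraries did not overlap for Mir130a and Mir301 and did overlap for Mir130b and Mir301b.

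By the type of 3p strand, Mir130a and Mir130b held 95.9% of the family's counts in replicate 1 and 95.2% in replicate 2, and Mir301 with Mir301b held 4.14% and 4.75%. By locus, chromosome 16, with both Mir130b and Mir301b, held 17.0% and 17.3%.

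**Figure D3:**
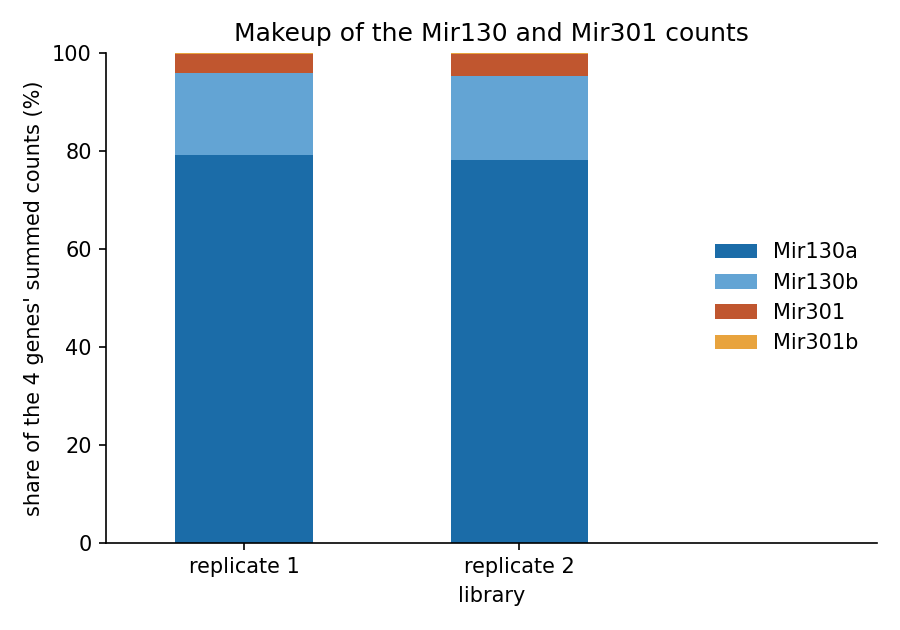
Share (%) of the summed counts of the 4 genes that each gene gave, as stacked bars for replicate 1 and replicate 2. Mir130a fills 79.1% and 78.2% of the bars, and the part of Mir301b, 0.248% and 0.274%, is too thin to see at the top.

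Differences between the genes were larger than the spread between replicates. They are log2 ratios of counts within a library, which no scaling changes, and with 2 libraries no exact test of them can pass a threshold. Mir130a exceeded the other 3 genes together by a log2 ratio of 1.88 ± 0.05 (SD, n = 2), 3.79-fold in replicate 1 and 3.59-fold in replicate 2. Mir130a exceeded Mir130b by a log2 ratio of 2.22 ± 0.03, 4.73-fold and 4.60-fold. Mir130b exceeded Mir301 by 2.02 ± 0.13 on the log2 scale, 4.30-fold and 3.80-fold. Mature strands can be captured with unequal efficiency, an error that both libraries would share and that this SD does not cover.

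The neighbours on chromosome 16 were counted at unequal levels. Mir130b and Mir301b lie 257 nt apart on the same strand of the same host gene, yet Mir130b was counted 67.5-fold more often than Mir301b in replicate 1 and 62.1-fold more often in replicate 2, a log2 ratio of 6.02 ± 0.09. Mir301 and Mir301b have the closest 3p sequences of the family and lie on different chromosomes. Mir301 was 15.7-fold higher than Mir301b in replicate 1 and 16.3-fold higher in replicate 2, a log2 ratio of 4.001 ± 0.041. Mir301b was therefore the lower gene both at its locus and within its sequence type.

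How far the gene counts could be mixed up was read from the sequences. No 3p sequence of the 4 genes occurred in another of the 1005 miRNA hairpins of the RefSeq table on either strand, and in the 141767 transcripts of GENCODE M21 each was found once, in its own gene. Allowing 1 mismatch, Mir301 and Mir301b matched each other and no other hairpin. Allowing 2, Mir130a and Mir130b matched each other too. No run shared with another hairpin reached 20 nt, the longest being 17 nt between Mir130a and Mir6389. How many mismatches the alignment allowed is not given in the sources used here, and the rest of the genome was not searched, so reads with an error at the base that separates Mir301 from Mir301b are uncertain.

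The counts came from the annotated strand. Of the 127002 counts of Mir130a in replicate 1, 1 was on the opposite strand, and for the other 3 genes and for replicate 2 none was. For Mir301b, 0 of 398 counts in replicate 1 allows an opposite-strand share of up to 0.923% (95% exact binomial limit).

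Other genes with the same seed were read next. Of the 1738 mature entries, 7 have the bases of the family seed at positions 2 to 8, among them 4 that belong to no gene of the family.
miR-130c: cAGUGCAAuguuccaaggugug
miR-721: cAGUGCAAuuaaaagggggaa
miR-6341: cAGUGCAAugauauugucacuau
miR-6389: cAGUGCAAuguuaaacuuugc
Mir130c, Mir6341 and Mir6389 had 0 counts in both libraries, a result that leaves room for 0.599 CPM (replicate 1) or 0.641 CPM (replicate 2) at most, among reads that map to 1 place. Mir721 is not among the genes counted and was not analysed here. Mir130c, Mir6341 and Mir6389 were looked up after a search of the table for the seed. Counts of genes with this seed in their RefSeq 3p or sole mature strand thus came from the family alone, Mir721 aside. Mir301b, which has no RefSeq 3p entry, was included for the seed in its hairpin. In all, 11 hairpins held C plus the seed on either strand, and those not named in the text are not covered.

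Families whose seed is shifted by 1 base were set beside it, since such seeds overlap in 6 bases. They are printed to show the shift.
miR-148a-3p: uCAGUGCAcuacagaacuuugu
miR-152-3p: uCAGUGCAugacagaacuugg
miR-19a-3p: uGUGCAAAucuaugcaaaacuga
The seed of Mir148a, Mir148b and Mir152, a family known for repressing DNA methyltransferases, starts 1 base earlier in the shared letters, and that of Mir19a, Mir19b-1 and Mir19b-2, which lie in the Mir17 clusters, starts 1 base later.

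In counted reads, both shifted families were lower than the Mir130 and Mir301 family. Mir148a, Mir148b and Mir152 together had 1663 CPM in replicate 1 and 1684 CPM in replicate 2, of which Mir148a held 1073 and 1122 CPM. The Mir130 and Mir301 family exceeded them 19.3-fold and 19.95-fold, a log2 ratio of 4.29 ± 0.03. Mir301 alone, at 1248 and 1505 CPM, was of the order of Mir148a.

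The summed level of the Mir19 genes was 65.9 and 74.4 CPM in replicates 1 and 2, led by Mir19a with 46.2 and 50.2 CPM. In counted reads, the family total exceeded this sum 486-fold and 452-fold, a log2 ratio of 8.87 ± 0.08. Mir19b-1 and Mir19b-2 give the same mature strand, so their reads can map to several places and their counts of 84 and 15 in replicate 1, and 101 and 12 in replicate 2, may be too low. The Mir19 sum may thus be too low as well, and the ratios to it too large. Mir301b, at 79.5 and 92.1 CPM, was above Mir19a in both libraries. Without Mir130a, a setting chosen after the data were seen, the log2 ratio of the remaining 3 genes was 2.06 over Mir148a, Mir148b and Mir152 and 6.64 over the Mir19 genes.

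Beside the cell type lists, the family total of 32074 and 33598 CPM stood below the epithelial markers. It stood above the endothelial marker Mir126a (21613 and 19164 CPM) and the mesenchymal markers (14630 and 15864 CPM). It was also above Mir375 of gastric and endocrine epithelium (5552 and 4678 CPM). The mesenchymal sum was nearly all Mir214, at 14036 and 15197 CPM, with little from the Mir199 genes. Reads that map to several places are counted for no gene, so list sums may be too low and these placings hold for counted reads only. Mir130a alone, at 25377 and 26286 CPM, was also above Mir126a in both libraries. In a whole organ, fewer cells of a type and less RNA per cell cannot be told apart, and these sums do not say which cells held the family.

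**Figure D4:**
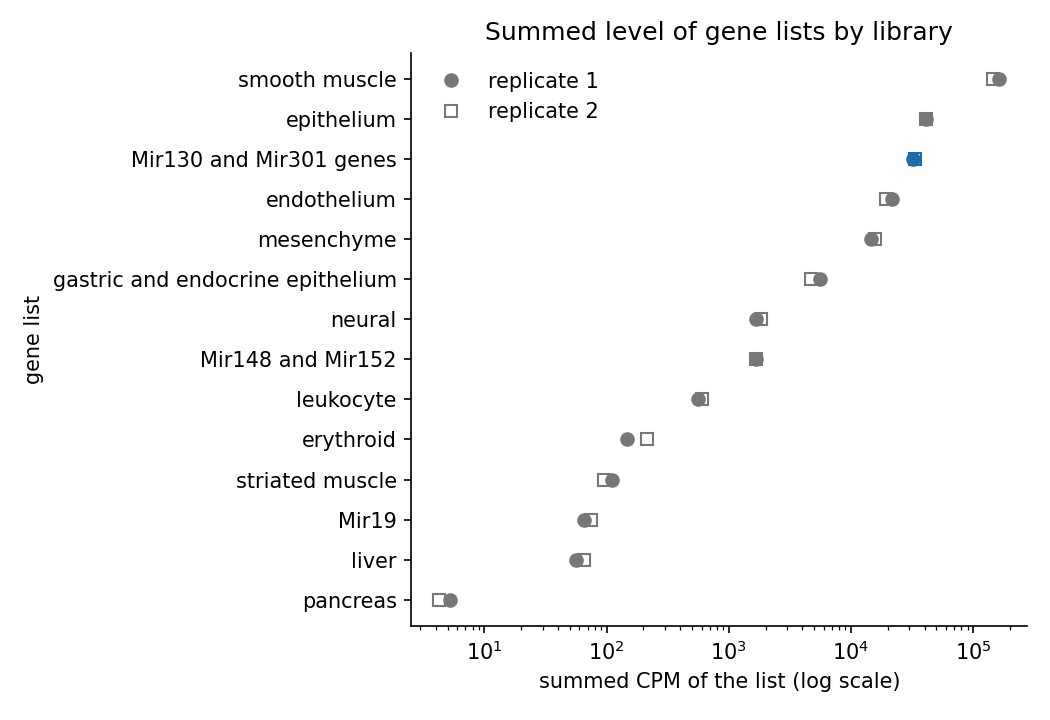
Summed CPM (log axis) of the Mir130 and Mir301 genes (blue) and of each other gene list (grey) in replicate 1 (filled circles) and replicate 2 (open squares). The blue points, at 32074 and 33598 CPM, lie between the epithelial and endothelial lists. They lie far above the Mir148 and Mir152 genes at 1663 and 1684 CPM and the Mir19 genes at 65.9 and 74.4 CPM. The Mir19 sum may be too low, since reads that map to several places are counted for no gene.

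The genes nearest to each member in level were taken by the larger of the 2 differences in log2(CPM + 1), 1 per library. Over 2 libraries this is likeness in level and says little of a pattern. Mirlet7i and Mir23b were nearest to Mir130a, with largest differences of 0.13 and 0.14. Gm24321, whose counts in replicate 1 all fell on the opposite strand, and Mir181c were nearest to Mir130b, both at 0.07. Mirlet7f-2 (0.10) and Mir28a (0.16) were nearest to Mir301, and Mir493 (0.05) and Mir539 (0.11) to Mir301b.

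The libraries were then compared for each gene with an exact conditional binomial test on counts, two-sided, with Benjamini-Hochberg adjustment over the 361 genes of 10 or more counts in both libraries, a minimum that all 4 genes passed. This test sets 1 library against 1 other, not conditions, and measures counting noise alone, so deeply counted genes pass it at small ratios. It called 42.1% of the 361 genes at an adjusted p under 0.05. Among the 4 genes 3 were called, all of them higher in replicate 2 when scaled to all gene counts, as were 24.7% of the 361 genes, against 17.5% called higher in replicate 1. That balance turned with the scaling, to 20.5% against 26.0% with TMM factors and 16.1% against 31.9% with size factors. With TMM factors 2 of the 4 genes, Mir130b and Mir301, were called, against 46.5% of the 361 genes. With size factors 2 were called, Mir301 and, as lower in replicate 2, Mir130a, against 47.9% of the 361 genes. The ratios of the 4 genes were small, and none had a log2 ratio of 1 or more, a size that 1.11% of genes reached with an adjusted p under 0.05.

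With CPM of all gene counts, each of the 4 genes was higher in replicate 2 (Mir130a was lower with TMM or size factors), with a median log2 ratio of 0.15 against 0.04 over the 361 genes, 206 of which were higher in replicate 2. Mir130a had a log2 ratio of 0.05 (0.04 to 0.06 as its 95% interval, with an exact binomial adjusted p of 1.07e-17). The ratio of Mir130b was 0.09 (0.07 to 0.11, adjusted p = 2.73e-12 by the same exact test). Mir301 had the largest, 0.27 (0.22 to 0.32, adjusted p = 4.47e-26 by the exact test), and 30.7% of the 361 genes had a larger absolute ratio. Mir301b, with the fewest counts, had 0.21 (0.01 to 0.41, adjusted p = 0.0800 by the exact test) and was not called.

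The direction and the call for Mir130a and the call for Mir130b rested on the scaling. TMM factors moved every log2 ratio by -0.05 and size factors by -0.09. The ratio of Mir130a was then -0.0019 with TMM factors and -0.040 with size factors, and that of Mir130b 0.04 and 0. Mir130a was no longer called with TMM factors (adjusted p = 0.825 by the exact test) or with totals without the 5 most abundant genes (adjusted p = 0.791 by the exact test), and with size factors it was called in the other direction. The 0 of Mir130b follows from the scaling itself, since the shift by size factors equals its own ratio, and is no independent check. For Mir301 it stayed above 0, at 0.22 with TMM factors and 0.18 with size factors, with an adjusted p of 4.71e-12 by the exact test under size factors. The 196 genes of 100 CPM or more had an SD of 0.20 in this log2 ratio, so Mir130a and Mir130b differed between libraries by less than that spread. Mir301 lay above it with totals, TMM factors or totals without the 5 most abundant genes, and below it with size factors.

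**Figure D5:**
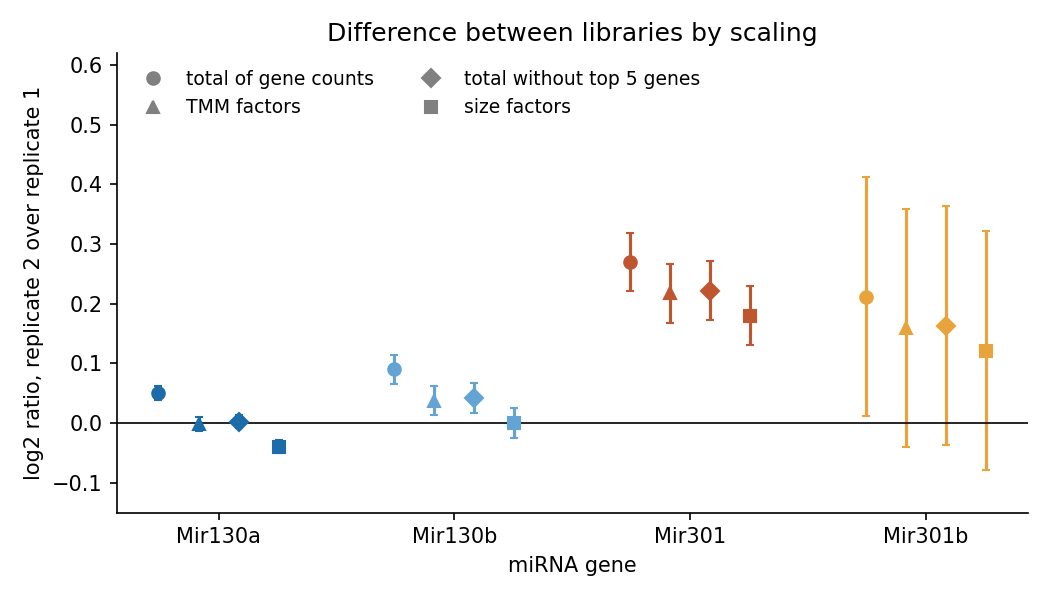
Log2 ratio of replicate 2 over replicate 1 for each gene, with 95% exact binomial intervals, under 4 scalings (symbols), where 0 is no difference. Mir301 lies above 0 under each, from 0.18 to 0.27, while Mir130a runs from -0.04 to 0.05 and the wide intervals of Mir301b cross 0 under 3 of the 4 scalings.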

How the data were processed

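The deposited tables give whole-number counts per gene for each library, without a header. Per the text that accompanies them, the authors made them on mm10 with GENCODE M4 from an alignment. The sources used here do not name the aligner or the counter. The 1st count column, the sum of both strand columns, was used, and the 4 lines that name no gene were left out of totals. Symbols came from GENCODE M21 by identifier without version, for 1894 of 1973 genes; sequences came from RefSeq (GRCm38.p6). Libraries were compared with scipy 1.17.1, and edgeR 4.0.16 and DESeq2 1.42.0 gave TMM and size factors only, since 1 group leaves edgeR's quasi-likelihood test no contrast. The test was checked on simulated Poisson counts, which hold no spread between libraries beyond counting and so do not cover such spread in these data. Depth was 5004548 and 4679914 gene counts, so 3 counts, the most that a count of 0 allows, equal 0.599 and 0.641 CPM. Named genes are the 4 members, the seed lists, the 2 nearest genes by level and miRNA neighbours within 10 kb; markers are given mainly as list totals. Members and lists were chosen with earlier results of these data known.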

Additional observations from a re-analysis of the deposited data

How the results depend on the processing

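Of 69 alternative values computed with both libraries, 52 were classed as keeping their direction, their side of the threshold and their size within 1 SD. Among these are counts of called genes, which have no SD, also where members called fell from 3 to 2 with TMM factors. The share called among all 361 genes rose there from 42.1% to 46.5%. Many others could hardly change: own-strand counts of the members differ by 1 read, and mean CPM barely depends on TMM or size factors. The 52 are therefore no measure of stability. Levels in CPM depend on the denominator. With totals that leave out the 5 most abundant genes, the mean was 41109 CPM for Mir130a, 8818 for Mir130b, 2187 for Mir301, 136 for Mir301b and 52251 for all 4. Per 1000000 of all reads, it was 14706 for Mir130a, 3155 for Mir130b, 783 for Mir301, 48.8 for Mir301b and 18693 for all 4. With the own-strand column the mean of Mir130a was 26560 CPM, because the opposite-strand counts of other genes leave the total. With 2 libraries, leaving 1 out moves a mean by less than 1 SD whatever the data, so the 34 values without a library show nothing about stability. Without Mir130a, chosen after the data were seen, the log2 ratio of the family over Mir148a, Mir148b and Mir152 was 2.06 and over the Mir19 genes 6.64. The log2 ratio of Mir130a between libraries was -0.0019 with TMM factors (exact binomial adjusted p = 0.825), -0.040 with size factors (exact adjusted p = 4.12e-11) and 0.0024 with totals that leave out the 5 most abundant genes (exact adjusted p = 0.791). Mir130b had a ratio of 0 with size factors, which follows from its own ratio setting them, and so was not called there. The calls of Mir301 held under each of the 5 alternatives, and Mir301b was called under none. No paired analysis was possible because there is 1 group. Depth limits Mir301b, whose 398 and 431 counts leave a wide interval for its ratio.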
